A study of Mus musculus with 20 samples.

Results

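The cells that build and resorb bone were followed through 10 genes in mice treated with oxaliplatin, a platinum chemotherapy drug. The genes were chosen by symbol as known markers of osteoblasts (Runx2, Sp7, Alpl, Ibsp, Bglap and Bglap2), of osteocytes (Sost), of osteoclasts (Acp5 and Ctsk) and of the signal that makes osteoclasts (Tnfsf11). All 10 were found, among 55486 genes counted in both tissues. C57BL/6 mice, 10 weeks old at the start and of both sexes according to the methods, received 10 mg/kg oxaliplatin in 5% dextrose or 5% dextrose alone by intraperitoneal injection over 8 weeks. Neither group carried a transgene or deletion, and the sex of single mice was not given. Every sequenced library held transcripts of Y-linked genes, which a female sample would lack, so a mix of sexes was not seen here. Marrow was collected from tibiae and femora by centrifugation once 6 days had passed since the final injection, and RNA was sequenced from 5 marrow and 5 kidney samples per treatment, each labelled as a biological replicate. Marrow libraries held 30660153 to 41140527 counts and kidney libraries 24393007 to 30925430, so that 3 counts, taken here as the lowest level that can be told from 0, correspond to 0.0668 to 0.0975 CPM (counts per 1000000 counts of a library) in marrow and 0.0900 to 0.130 CPM in kidney. These limits and all count intervals cover counting error only. CPM values below are scaled by the trimmed mean of M-values (TMM), which sets libraries to a common scale.

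Osteoblasts are the bone-forming cells. The transcription factors Runx2 and Sp7 commit stromal progenitors to this lineage, and the cells then secrete a collagen matrix with the glycoproteins bone sialoprotein (Ibsp) and osteocalcin (Bglap and Bglap2), which the enzyme alkaline phosphatase (Alpl) helps to mineralize. Osteoblasts buried in the matrix become osteocytes, which secrete sclerostin (Sost), an inhibitor of Wnt signalling and of bone formation. Osteoclasts are fused cells of the monocyte lineage that resorb bone with tartrate-resistant acid phosphatase (Acp5) and cathepsin K (Ctsk). They form when RANKL (Tnfsf11) binds its receptor RANK, a step blocked by the decoy receptor osteoprotegerin (Tnfrsf11b). Runx2 is also made by some blood cells, and Acp5 and Ctsk by some macrophages, so none of these 3 marks a bone cell alone. Alpl and Sost were counted in kidney too, and whether the other genes came from bone cells alone was not tested. The marrow itself was spun out of the shaft. Cells embedded in bone would be a small part of such a sample, but their share was not measured.

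Mouse osteocalcin is encoded by near-identical neighbouring genes, and the counts of Bglap and Bglap2 depend on the few bases by which they differ. Bglap lies on chromosome 3 at 88383501 to 88384464 and Bglap2 at 88377736 to 88378699, both on the minus strand of GRCm38 with 4 exon blocks each. Their coding sequences in the GENCODE M21 annotation are shown whole to let the copies be compared. Each is 288 bases with its stop codon, and the capitals mark the 4 positions at which the copies differ, which gives 98.6% identity.
Bglap: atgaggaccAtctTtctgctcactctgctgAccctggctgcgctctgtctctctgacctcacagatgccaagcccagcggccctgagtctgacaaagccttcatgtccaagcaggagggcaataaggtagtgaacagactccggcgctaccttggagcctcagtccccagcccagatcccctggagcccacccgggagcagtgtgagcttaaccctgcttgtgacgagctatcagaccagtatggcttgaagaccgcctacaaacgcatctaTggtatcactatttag
Bglap2: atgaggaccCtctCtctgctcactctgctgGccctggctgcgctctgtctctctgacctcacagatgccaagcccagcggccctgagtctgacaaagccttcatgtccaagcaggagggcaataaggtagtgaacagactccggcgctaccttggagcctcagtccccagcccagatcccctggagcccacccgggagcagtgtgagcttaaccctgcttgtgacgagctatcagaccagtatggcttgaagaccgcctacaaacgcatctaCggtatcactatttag
Counted from 1 at the start codon and written from Bglap to Bglap2, the differences were A10C, T14C, A31G and T273C. One protein-coding transcript of each gene was compared, of 440 bases for Bglap and 471 for Bglap2. Of all stretches of 50 bases in that of Bglap, 25.3% occurred in no protein-coding transcript of Bglap2 or Bglap3, the other osteocalcin-like copy. For Bglap2 the share was 11.8%. Transcripts not annotated as protein-coding were not searched. At 100 bases the shares were 43.7% and 43.0%. The methods state that uniquely aligned reads were counted, so reads from the shared stretches may be missing from both genes, and Bglap and Bglap2 values are lower limits on osteocalcin RNA whose split between the copies is uncertain.

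The RUNX core motif TGTGGT, which RUNX proteins including Runx2 recognise, was searched on both strands in windows from 250 bases before to 50 after each RefSeq start (GRCm38.p6). It was present in 2 of the 8 genes of the set that had a window, Bglap and Runx2, against 18.9% of the 27025 genes with a window. Bglap2 and Sp7 had no window. The 250 bases before the start are shown for Bglap and Runx2, which held the motif, and for Ibsp, which did not. They are written 5′ to 3′ on the strand of the gene, with the motif or its reverse complement in capitals. The regions are chr3:88384467-88384716 (minus strand) for Bglap, chr17:44814628-44814877 (minus strand) for Runx2 and chr5:104299037-104299286 (plus strand) for Ibsp.
Bglap: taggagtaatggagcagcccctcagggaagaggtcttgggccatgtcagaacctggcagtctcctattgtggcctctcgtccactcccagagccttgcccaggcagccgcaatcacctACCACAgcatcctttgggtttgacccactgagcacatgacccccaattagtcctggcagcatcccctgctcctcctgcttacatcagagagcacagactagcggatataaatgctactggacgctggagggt
Runx2: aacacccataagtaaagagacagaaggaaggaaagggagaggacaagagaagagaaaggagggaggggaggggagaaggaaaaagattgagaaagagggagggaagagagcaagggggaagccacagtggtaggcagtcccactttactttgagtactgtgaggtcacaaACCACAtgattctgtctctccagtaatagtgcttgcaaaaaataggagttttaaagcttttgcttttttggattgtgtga
Ibsp: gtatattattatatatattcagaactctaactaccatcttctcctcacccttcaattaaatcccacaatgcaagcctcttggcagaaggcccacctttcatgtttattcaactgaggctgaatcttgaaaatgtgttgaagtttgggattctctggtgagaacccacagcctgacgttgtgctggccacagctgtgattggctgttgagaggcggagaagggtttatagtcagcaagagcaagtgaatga
The match in Bglap began 132 bases before the start and that in Runx2 80 bases before it. In Runx2, 2 more matches began 24 and 32 bases after the start. These are matches of letters and say nothing of binding.

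In bone marrow the genes of bone cells did not move as a block. Ibsp and Runx2 fell, Tnfsf11 and Ctsk rose, and the remaining 5 tested genes did not pass the test. A gene was called when its adjusted p in edgeR's quasi-likelihood test (Benjamini-Hochberg over all tested genes) was under 0.05 and its change exceeded 1.5-fold. Of the 10 genes, 9 had enough counts to be tested and 4 were called (2 higher, 2 lower), in a marrow in which 23.3% of 22363 tested genes were called, 11.6% higher and 11.8% lower. Library-size scaling alone turned that background from 2589 higher and 2632 lower to 3431 higher and 1984 lower, and the calls in the set to 2 higher and 1 lower. The groups did not overlap for 3 of the 9 genes, against 24.9% of all genes. The median log2 fold change of the 9 was 0.06, and that of all tested genes was -0.04. With a covariate for Y-linked expression, Alpl, Sp7 and Acp5 were called higher as well, which made 7 of 9. Under that covariate 5740 of all 22363 tested genes were called, 2894 higher and 2846 lower. The list is too short for these counts to be more than a description, and the genes are taken one by one here. In whole marrow, fewer cells of a type and less RNA per cell cannot be told apart.

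**Figure D1:**
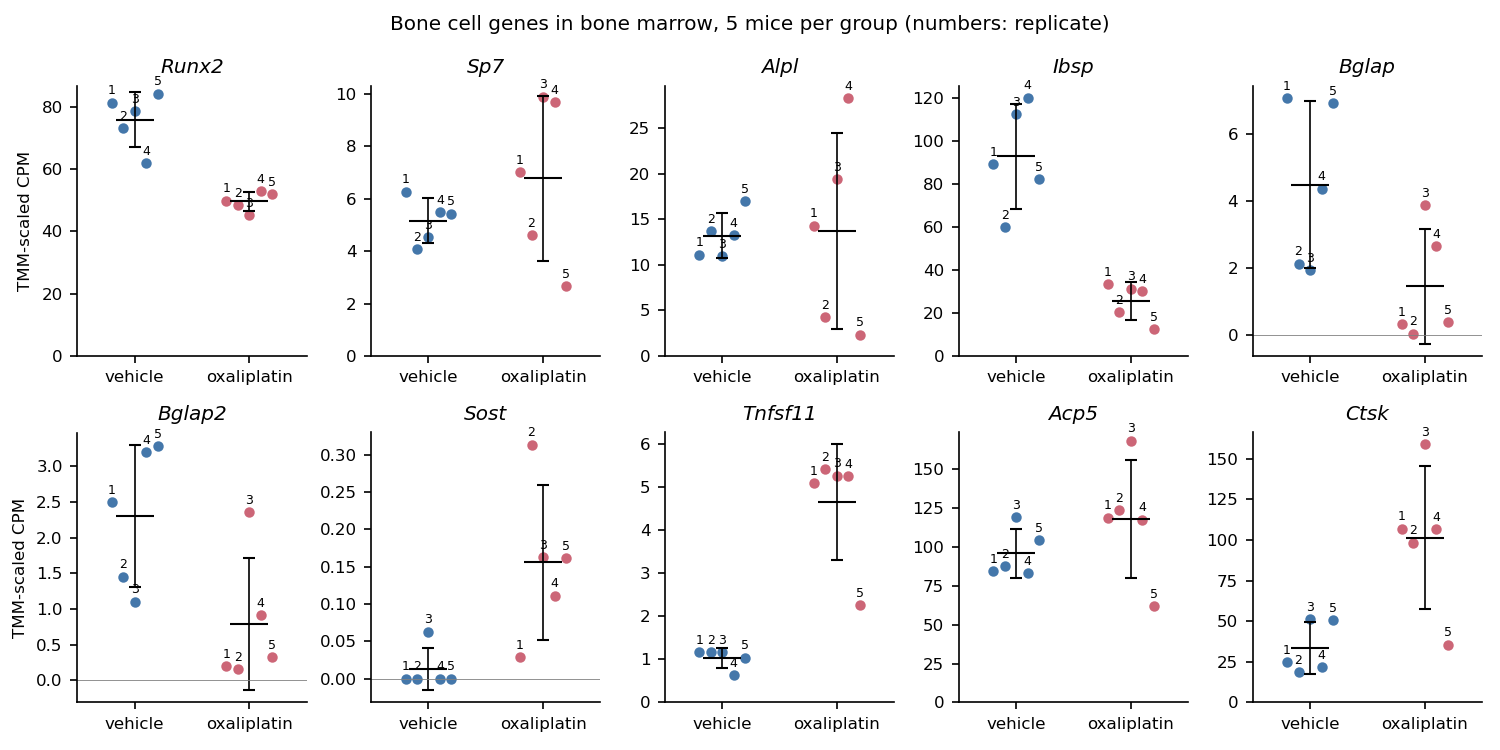
TMM-scaled CPM (vertical axes, each from 0 or just below it) of the 10 genes in each bone marrow library, by treatment (horizontal axis). Points are mice with their replicate number, bars show the mean ± SD of 5 mice, and the oxaliplatin points lie wholly below the vehicle points for Runx2 and Ibsp and wholly above them for Tnfsf11.

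Runx2, the master transcription factor of the osteoblast lineage, was measured at 81.5, 73.3, 78.8, 61.9 and 84.3 CPM in the vehicle marrows and at 49.9, 48.5, 45.3, 53.0 and 52.1 CPM in the oxaliplatin marrows. Every oxaliplatin mouse was below every vehicle mouse, and the oxaliplatin group was tight, with a coefficient of variation of 6.13% against 11.7% in vehicle. The level fell by 0.61 on the log2 scale (SE 0.10, adjusted p = 2.8e-04), or 1.53-fold, which is just past the 1.5-fold limit. Without vehicle mouse 1, vehicle mouse 5 or oxaliplatin mouse 3 the change was -0.58, -0.57 and -0.58, within the limit, with an adjusted p of 0.00134, 0.00112 and 2.3e-04. It was within the limit too with DESeq2 (-0.57), with median ratio scaling (-0.57), with library-size scaling (-0.47) and without hemoglobin genes (-0.58), at an adjusted p of at most 0.00528. Runx2 lies on chromosome 17 at 44495987 to 44814797, minus strand, and 519 of its 8837 exonic bases also belong to exons of the antisense gene Runx2os1, which was at 0.775 ± 0.147 CPM (SD, n = 5) in vehicle and 0.688 ± 0.177 CPM in oxaliplatin marrow.

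Sp7, also called osterix, acts after Runx2 in osteoblast commitment. It was at 6.27, 4.07, 4.54, 5.50 and 5.43 CPM in vehicle marrow and at 7.03, 4.61, 9.91, 9.70 and 2.67 CPM in oxaliplatin marrow. The oxaliplatin mice spread to both sides of the vehicle group, with 3 above it and 1 below. The log2 fold change was 0.40 (SE 0.30, adjusted p = 0.354), and without oxaliplatin mouse 5 it was 0.64 with an adjusted p of 0.0475, past the threshold. With any single mouse left out the log2 fold change ranged from 0.22 to 0.64, and without oxaliplatin mice 3 and 4 together, which were picked by their osteocalcin counts, it was -0.11. These mice had the highest Sp7 values of their group, so a lower estimate followed from the choice.

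Ibsp, bone sialoprotein, a matrix protein that nucleates mineral, had the largest fall among the 9 tested genes. It was at 89.2, 59.8, 112, 120 and 82.3 CPM in vehicle marrow. In oxaliplatin marrow it was at 33.4, 20.5, 31.3, 30.0 and 12.5 CPM, below every vehicle mouse in all 5. The level fell by 1.86 on the log2 scale (SE 0.27, adjusted p = 2.2e-04), a 3.63-fold decrease. Ibsp lies on chromosome 5 at 104299171 to 104311469, plus strand, and no annotated gene overlaps it.

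Bglap and Bglap2, the osteocalcin genes of mature osteoblasts, divided the oxaliplatin mice. Bglap counts were 223, 73, 61, 153 and 213 in vehicle marrow and 11, 1, 166, 119 and 14 in oxaliplatin marrow, or 7.06, 2.12, 1.92, 4.36 and 6.92 CPM against 0.317, 0.0313, 3.87, 2.65 and 0.377 CPM. Oxaliplatin mice 1, 2 and 5 were below the whole vehicle group, while mice 3 and 4 lay inside it. Bglap2 counts were 79, 50, 35, 112 and 101 in vehicle and 7, 5, 101, 41 and 12 in oxaliplatin marrow. In CPM, oxaliplatin mice 1, 2 and 5 (0.157 to 0.323) and mouse 4 (0.912) were below the lowest vehicle mouse (1.10), and mouse 3 (2.35) was not. Neither change passed the test, with log2 fold changes of -1.60 for Bglap (SE 0.84, adjusted p = 0.174) and -1.52 for Bglap2 (SE 0.64, adjusted p = 0.0915). The coefficient of variation of Bglap was 55.5% in vehicle and 118% in oxaliplatin marrow. Without oxaliplatin mouse 3, Bglap2 was called lower at -2.47 (SE 0.51, adjusted p = 0.00204). With a covariate for Y-linked expression the log2 fold change was -0.67 for Bglap (adjusted p = 0.545) and -0.86 for Bglap2 (adjusted p = 0.325).

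The ratio of Bglap2 to Bglap within a library does not depend on scaling and was used to ask whether the copies moved apart. On the log2 scale with 0.5 added to each count it averaged -0.87 ± 0.42 (SD, n = 5) in vehicle and -0.24 ± 1.27 in oxaliplatin marrow. Over every division of the 10 libraries into 5 and 5, a two-sided exact permutation test gave p = 0.381 for the difference of 0.63, and the smallest p this design allows is 0.00794. The widest value, 1.87, came from oxaliplatin mouse 2, in which the ratio rests on 5 and 1 counts. Bglap3, the more distant copy, had 22 counts over the vehicle marrows and 1 over the oxaliplatin marrows and was not tested.

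Alpl, the tissue-nonspecific alkaline phosphatase of mineralizing cells, spread widely among the oxaliplatin mice. Vehicle marrow held 11.1, 13.7, 11.0, 13.3 and 17.0 CPM, and oxaliplatin marrow held 14.3, 4.26, 19.4, 28.3 and 2.35 CPM. Mice 3 and 4 were above the whole vehicle group, mice 2 and 5 below it and mouse 1 inside it. The log2 fold change was 0.06 (SE 0.53, adjusted p = 0.947), and its sign turned on which oxaliplatin mouse was left out, from -0.39 to 0.37. The coefficient of variation was 18.6% in vehicle and 78.6% in oxaliplatin marrow.

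Sost, which encodes the osteocyte product sclerostin, was close to the detection limit and was not tested. Its counts were 0, 0, 2, 0 and 0 in vehicle marrow and 1, 10, 7, 5 and 6 in oxaliplatin marrow. Scaled for depth, the pooled oxaliplatin count of 29 was 12.4 times the pooled vehicle count of 2, with an exact 95% counting interval from 3.13 to 107. All vehicle libraries were at or below the limit of 3 counts, and 4 of the 5 oxaliplatin libraries were above it. The other genes of the osteocyte list are given with the lists below, and Mepe, a further osteocyte marker, had 4 counts over the vehicle and 42 over the oxaliplatin marrows.

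Tnfsf11, the RANKL ligand that stromal and osteoblast-lineage cells present to osteoclast precursors, had the largest rise among the tested genes of the set. It was at 1.17, 1.16, 1.17, 0.627 and 1.04 CPM in vehicle marrow and at 5.10, 5.42, 5.27, 5.25 and 2.26 CPM in oxaliplatin marrow. All 5 oxaliplatin mice were above all vehicle mice. The level rose by 2.17 on the log2 scale (SE 0.28, adjusted p = 6.2e-05), or 4.50-fold. The oxaliplatin libraries held 84 to 236 counts of it and the vehicle libraries 22 to 40.

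Tnfrsf11b, which encodes the decoy receptor osteoprotegerin, rose as well, with counts of 17, 4, 8, 4 and 14 in vehicle and 148, 48, 73, 94 and 28 in oxaliplatin marrow (log2 fold change 2.81, SE 0.53, adjusted p = 0.00118). The log2 ratio of ligand to decoy within a library averaged 1.98 ± 0.87 (SD, n = 5) in vehicle and 1.32 ± 0.62 in oxaliplatin marrow. The difference of -0.66 was smaller than the spread of the vehicle group, and the exact two-sided permutation test gave p = 0.214. Oxaliplatin mouse 1 had the lowest ratio, 0.26, and vehicle mouse 2, with only 4 counts of the decoy, the highest, 3.17.

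**Figure D2:**
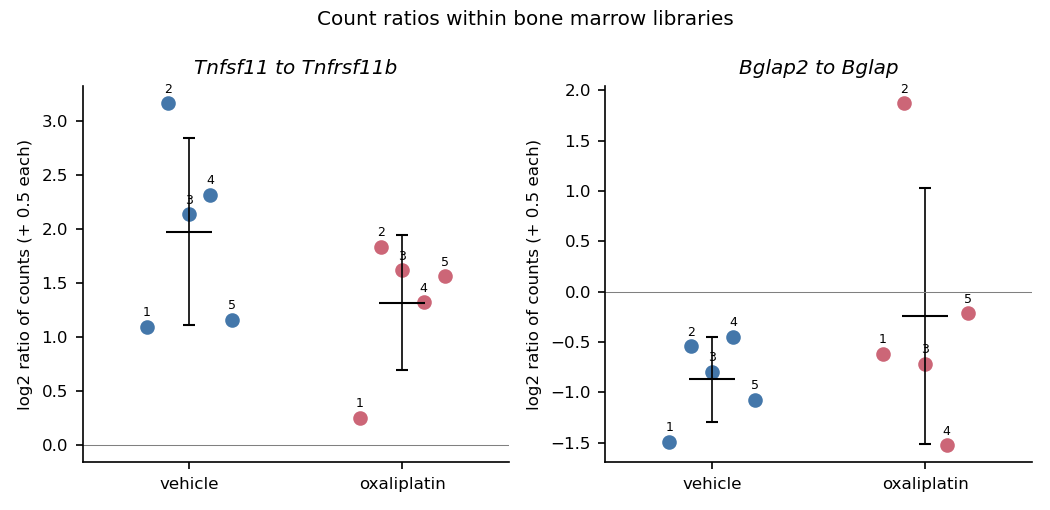
Log2 ratio of counts within each bone marrow library (vertical axis, 0.5 added to each count) for Tnfsf11 to Tnfrsf11b and for Bglap2 to Bglap, by treatment. Points are mice with their replicate number and bars the mean ± SD of 5 mice, and the groups overlap in both panels.

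Of the classic osteoclast enzymes, Ctsk rose and Acp5 did not pass the test. Acp5 was at 84.7, 87.9, 119, 83.1 and 104 CPM in vehicle marrow and at 119, 124, 168, 118 and 62.0 CPM in oxaliplatin marrow. Its log2 fold change of 0.30 (SE 0.21, adjusted p = 0.300) did not pass the test, and the groups overlapped. Ctsk was at 24.9, 18.6, 51.3, 21.6 and 50.5 CPM in vehicle marrow and at 107, 98.4, 159, 107 and 35.6 CPM in oxaliplatin marrow. Oxaliplatin mice 1 to 4 were above every vehicle mouse, and mouse 5 lay inside the vehicle range. Ctsk rose by 1.60 on the log2 scale (SE 0.40, adjusted p = 0.00924), or 3.04-fold, and remained past the threshold whichever single mouse was left out, at an adjusted p of 0.00109 to 0.0471. Without oxaliplatin mice 3 and 4 together, picked by their osteocalcin counts, it was at 1.27 and no longer called (adjusted p = 0.113). Mouse 3 had the highest Ctsk value and fewer mice remained, so a weaker result followed from the choice. An unequal response of the 2 enzymes was not tested directly. Acp5 shares 137 of its 2030 exonic bases with 6530413G14Rik on the opposite strand, and whether reads were counted by strand is not given in the sources used here.

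Several genes of the set ranked the oxaliplatin mice alike. Mouse 5 had the lowest value among the oxaliplatin mice for Sp7, Alpl, Ibsp, Tnfsf11, Acp5 and Ctsk. This was not particular to bone genes. Mouse 5 was also lowest for the summed adipocyte (257 CPM), reticular stroma (1632), chondrocyte (29.2), B cell (56.0) and Y-linked (99.1) genes. It was not lowest for the endothelial, skeletal muscle, macrophage, neutrophil, erythroid or T cell sums. Mice 3 and 4 had the highest values for Sp7, Alpl, Bglap and Bglap2, together with Col1a1, the main bone collagen, which was at 607 and 557 CPM in these mice against 161 to 282 CPM in the other oxaliplatin mice and 218 to 559 CPM in vehicle. Runx2 varied less. Its log2 value against the vehicle mean lay between -0.74 and -0.52 in all 5 mice, whereas that of Bglap reached from -0.21 down to -5.57 or lower in mouse 2, whose single count is below the limit of 3 counts, and that of Alpl between -2.49 and 1.10. In the same libraries the summed neutrophil markers were at 6629 and 8976 CPM in mice 3 and 4 and at 20583, 19479 and 24887 CPM in mice 1, 2 and 5. Comp, a cartilage matrix gene of the chondrocyte list, was at 144 and 194 CPM in mice 3 and 4 and at 92.2, 29.8 and 15.8 CPM in mice 1, 2 and 5. Col2a1, Col10a1 and Sox9 of that list were not called between the groups. Other sums did not set mice 3 and 4 apart. Skeletal muscle markers were highest in mouse 3 (819 CPM) and lowest in mouse 4 (44.8 CPM). Adipocyte markers were at 1727, 609, 1584, 1702 and 257 CPM in mice 1 to 5. The part of any of these in the split of the mice was not tested.

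**Figure D3:**
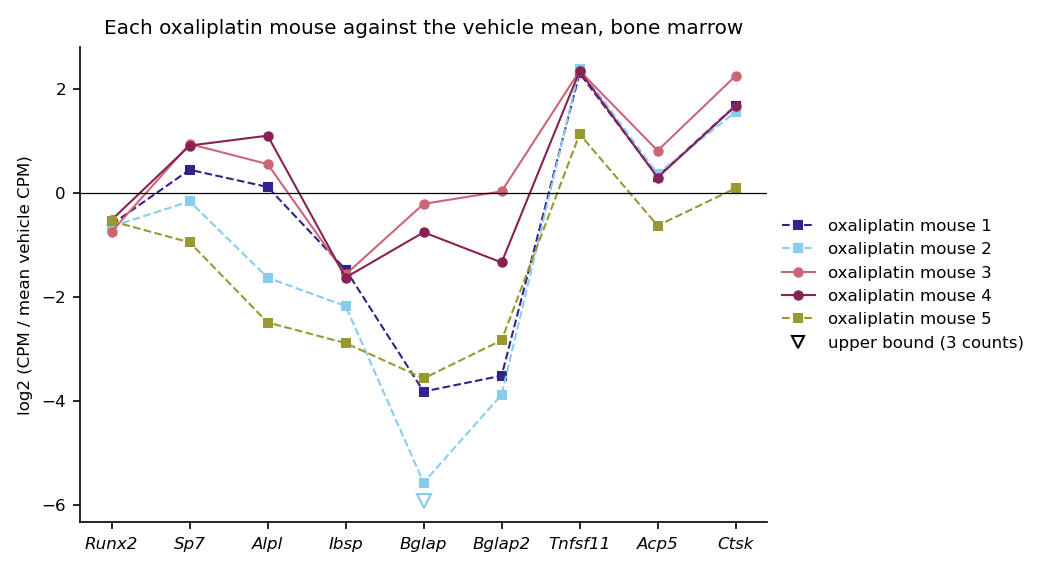
Log2 of the CPM of each oxaliplatin bone marrow over the mean vehicle CPM (vertical axis) for 9 genes (horizontal axis), with Sost left out because the vehicle marrows were near 0. Lines join the values of one mouse and have no other meaning, and solid lines mark mice 3 and 4, which lie near the vehicle mean for Bglap while mice 1, 2 and 5 lie more than 3 log2 units below it. The open triangle under the Bglap point of mouse 2 marks that point, drawn at 3 counts, as an upper bound.

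Per kilobase of exon, so that genes can be compared, the vehicle marrow held most Acp5 (47.2 ± 7.69 CPM per kb, SD, n = 5) and Ibsp (44.8 ± 11.7), which did not differ beyond their spread. Ctsk followed at 22.1 ± 10.7 CPM per kb, then Runx2 at 8.59 ± 1.00, Bglap at 7.24 ± 4.02, Bglap2 at 4.90 ± 2.11 and Alpl at 3.27 ± 0.608, and from Runx2 to Alpl each neighbour in this order differed by less than the larger SD. Sp7 was at 1.52 ± 0.254 CPM per kb and Tnfsf11 at 0.462 ± 0.105, each apart from its neighbours. In oxaliplatin marrow Ctsk stood at 67.0 ± 29.1 CPM per kb beside Acp5 at 58.2 ± 18.6, and Ibsp was at 12.3 ± 4.25. Tnfsf11, at 2.08 ± 0.601 CPM per kb, then lay among Bglap (2.34 ± 2.77), Sp7 (2.00 ± 0.931) and Bglap2 (1.68 ± 1.96). For Bglap and Bglap2 these are lower limits, because reads from shared stretches may be missing, so their places in both orders are uncertain.

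The marrow around these genes changed in composition, and the marker levels below stand beside every marrow result above. All 6 erythroid markers fell, from a summed 22530 to 39960 CPM in vehicle to 2718 to 7288 CPM, and so did all 6 B cell markers, from 246 to 441 CPM to 56.0 to 75.1 CPM. All 6 adipocyte markers rose, from 20.2 to 51.3 CPM to 257 to 1727 CPM, and 6 of 7 tested skeletal muscle markers rose, from 9.75 to 106 CPM to 44.8 to 819 CPM, with Tnnc2 at or under the limit in every library. Macrophage markers (3 of 6 higher) summed to 820 to 1161 CPM and 954 to 2156 CPM, and reticular stroma markers (2 of 6 higher) to 1311 to 1699 CPM and 1632 to 2651 CPM. Endothelial markers (3 of 6 higher) summed to 250 to 315 CPM and 347 to 595 CPM, and T cell markers to 81.8 to 115 CPM and 38.8 to 61.5 CPM. Of the T cell list Cd4 alone was called, lower, and its median log2 fold change was 0.26. Neutrophil markers were 0 of 6 called, at 16890 to 20780 CPM and 6629 to 24890 CPM, and chondrocyte markers summed to 13.0 to 27.9 CPM and 29.2 to 210 CPM. In oxaliplatin marrow most of the chondrocyte sum was Comp, at a mean of 95.1 CPM against 2.27 CPM in vehicle. Comp was the 1 of 4 tested chondrocyte markers that was called, while Col2a1 (-0.53), Col10a1 (-0.06) and Sox9 (0.30 on the log2 scale) were not. Kidney tubule markers summed to at most 1.05 CPM in every marrow library, against at least 14370 CPM in kidney. The part of these cells in the results for the bone genes was not tested.

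Kidney served as the comparison tissue, and there 5 of the 10 genes had enough counts to be tested. The 5 were called, 4 higher and 1 lower, where 11.5% of 19293 tested genes were called, 7.68% higher and 3.81% lower. Library-size scaling alone gave 4 higher and 0 lower in the set, and 2245 higher and 470 lower in place of 1481 and 735 over all genes. Tested against a 1.5-fold change instead, 0 of the 5 passed in edgeR (2 at an unadjusted p under 0.05), while DESeq2 with the usual limits called 4. Over all 19293 tested genes these settings called 454 and 2391. The groups did not overlap for 2 of the 5 genes, against 20.7% of all genes. The osteoblast matrix genes Bglap (0 counts in vehicle, 1 in oxaliplatin), Bglap2 (1 and 4) and Ibsp (0 and 1), each summed over 5 kidneys, were at or below the limit in every library. Sp7 (12 and 13 counts) and Tnfsf11 (7 and 8) were also too low to test.

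Alpl, which the proximal tubule also makes, was the most abundant of the 10 genes in kidney, at 444, 421, 396, 407 and 418 CPM in vehicle and 662, 617, 633, 544 and 676 CPM in oxaliplatin kidneys. All oxaliplatin kidneys were above all vehicle kidneys, and the rise of 0.59 on the log2 scale (SE 0.07, adjusted p = 2.0e-05) lay at the 1.5-fold limit itself. It dropped out of the calls, at 0.57 to 0.58, without vehicle kidney 3 or 4 or oxaliplatin kidney 1 or 5, and at 0.58 with DESeq2, with median ratio scaling and with a replicate block. Runx2 was far lower in kidney than in marrow, at 1.64, 1.56, 0.864, 1.61 and 1.66 CPM in vehicle and 3.55, 3.20, 1.73, 3.72 and 4.41 CPM in oxaliplatin kidneys, again without overlap. It rose by 1.17 on the log2 scale (SE 0.24, adjusted p = 0.00174).

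Sost was better counted in kidney than in marrow, with 13, 9, 13, 14 and 11 counts in vehicle and 47, 24, 37, 13 and 46 counts in oxaliplatin kidneys. It rose by 1.23 on the log2 scale (SE 0.35, adjusted p = 0.0135), and in oxaliplatin kidney 4 it lay inside the vehicle range. Ctsk rose by 0.78 (SE 0.23, adjusted p = 0.0165), from 1.38 to 2.99 CPM in vehicle to 2.56 to 4.77 CPM in oxaliplatin kidneys, with 3 of 5 above the vehicle range. Acp5 went the other way, from 43.9 to 58.5 CPM to 24.9 to 45.0 CPM, a fall of 0.63 on the log2 scale (SE 0.17, adjusted p = 0.0145) seen below the vehicle range in 4 of 5 kidneys. Acp5 was no longer called without vehicle kidney 5 or oxaliplatin kidney 1, 4 or 5, at -0.58 to -0.54, with library-size scaling (-0.50) or without the count filter (adjusted p = 0.0621). Macrophage markers in kidney summed to 30.4 to 36.9 CPM in vehicle and 17.0 to 26.7 CPM in oxaliplatin kidneys, with 3 of 5 tested markers lower and 1 higher, and their part in the Acp5 result was not tested.

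**Figure D4:**
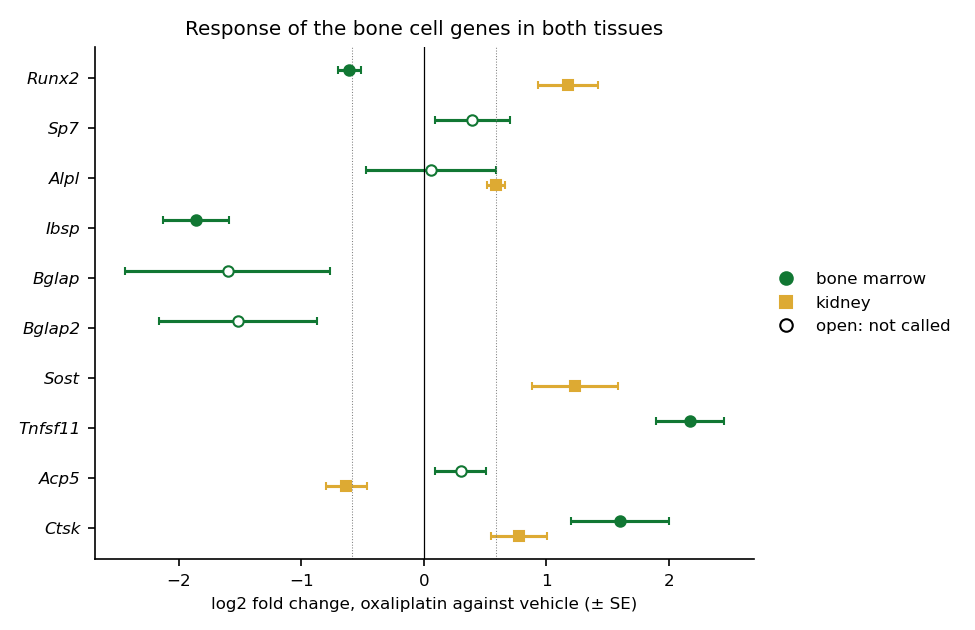
Log2 fold change of oxaliplatin against vehicle (horizontal axis) with its standard error, for each gene tested in bone marrow (circles) and kidney (squares). Filled symbols were called, open ones were not, dotted lines mark a 1.5-fold change, and Runx2 lies left of 0 in marrow (-0.61) and right of it in kidney (1.17).

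Whether a gene responded differently in the tissues was tested as an interaction over all 20 libraries, in which 30.1% of 24321 genes passed an adjusted p of 0.05. Among the 4 genes tested in both tissues, Runx2 and Acp5 passed. Runx2 changed by 1.73 log2 units less in marrow than in kidney (difference -1.73, SE 0.25, adjusted p = 1.5e-05), falling in one tissue and rising in the other. Acp5 had a difference of 1.00 (SE 0.29, adjusted p = 0.0135). Ctsk (0.90, SE 0.53, adjusted p = 0.222) and Alpl (-0.45, SE 0.57, adjusted p = 0.599) did not pass, and Ctsk passed at 1.16 with an adjusted p of 0.0483 without marrow oxaliplatin mouse 5. The labels do not say whether kidney and marrow with the same number came from one mouse.

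The pathways around the set were read from lists of bone genes, first those of the osteoblast. Over all tested marrow genes 11.6% were called higher and 11.8% lower, and each marrow count is given beside these shares. Of 4 tested osteoblast transcription factors in marrow, Runx2 alone was called, lower, and Dlx5, Sp7 and Atf4 were not. Of 9 tested osteoblast matrix genes 2 were higher and 2 lower, the largest rise being that of Sparc, osteonectin (log2 fold change 1.77, SE 0.28, adjusted p = 3.8e-04), and the largest fall that of Ibsp. Col1a1 was at 0.08 (SE 0.38, adjusted p = 0.898) and was not called. Col1a2 was the other gene called higher, at 0.76 (SE 0.23, adjusted p = 0.0212). Of 5 mineralization genes only Ank, a transporter of the mineral inhibitor pyrophosphate, was called, falling by 1.71 on the log2 scale (SE 0.13, adjusted p = 1.1e-06). The median log2 fold change was 0.16 for the transcription factors, -0.21 for the matrix genes and 0.06 for the mineralization genes, against -0.04 over all tested genes.

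In the osteocyte list, 3 of 6 genes could be tested and the changes went both ways. Fgf23, the hormone that makes the kidney excrete phosphate, rose from 0.253, 0.175, 1.58, 0.684 and 1.01 CPM in vehicle to 94.1, 116, 33.6, 39.1 and 99.0 CPM in oxaliplatin marrow, by 6.70 on the log2 scale (SE 0.59, adjusted p = 8.0e-06). Mice 3 and 4, the highest for osteocalcin, had the lowest Fgf23 of the oxaliplatin group. All 6 erythroid markers fell in these marrows, and which marrow cells held the Fgf23 RNA was not tested. Phex, an osteoblast and osteocyte endopeptidase, fell by 1.08 (SE 0.36, adjusted p = 0.0345), and Dmp1 was not called. The median log2 fold change of the list was 0.36. Fgf23 in kidney had 1 count over all vehicle and 0 over all oxaliplatin libraries. Among Wnt receptors and inhibitors 2 of 5 tested were higher, led by the inhibitor Sfrp1 at 2.67 (SE 0.18, adjusted p = 3.4e-07), and 1 was lower, the Wnt target Axin2 at -0.65 (SE 0.21, adjusted p = 0.0321), with a median of 0.22.

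The RANKL system and the osteoclast list held more rises than falls, where 11.6% of all tested marrow genes were called higher and 11.8% lower. In the RANKL system 5 of 7 genes were higher and 0 lower, with Tnfrsf11b and Tnfsf11 ahead of the receptor Tnfrsf11a (RANK, 0.86, SE 0.12, adjusted p = 1.1e-04), Csf1 and Csf1r. The osteoclast transcription factor Nfatc1 was at -0.01 (SE 0.11, adjusted p = 0.941). Of 14 genes of osteoclast resorption and fusion 6 were higher and 1 was lower. The largest rise was that of the fusion gene Dcstamp, at 2.09 (SE 0.41, adjusted p = 0.00162), followed by Atp6v0d2 (1.61, SE 0.15, adjusted p = 5.0e-06) and Ctsk. Oscar, Ocstamp and Itgb3 were the remaining rises, and Itgb3 (0.84, SE 0.13, adjusted p = 3.1e-04) went from a mean of 723 to 1292 CPM. Ctsk is also made by some macrophages, and 3 of 6 macrophage markers were higher in the same marrows. Which cells held the RNA of the genes called higher in these lists was not tested. The fall was that of Car2, a carbonic anhydrase that red cell precursors also make, at -1.83 (SE 0.30, adjusted p = 4.7e-04), in the same libraries in which the 6 erythroid markers fell. Its relation to the erythroid change was not tested. Tcirg1, Clcn7 and Mmp9, which osteoclasts share with other cells, were not called. Nor were Acp5, Calcr (1.43, adjusted p = 0.0782), Siglec15 (0.79, adjusted p = 0.0566) and Ostm1, which lay within the 1.5-fold limit at 0.36. The median log2 fold change was 0.60 in the RANKL system and 0.81 in the osteoclast list, against -0.04 over all tested genes.

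Of the 3 hormone receptors of bone, Vdr, the vitamin D receptor, rose by 1.48 on the log2 scale (SE 0.18, adjusted p = 4.1e-05) and Pth1r, the parathyroid hormone receptor, by 0.74 (SE 0.23, adjusted p = 0.0222), while Esr1 was not called in marrow. In kidney, the same receptors stood differently, with Pth1r at -0.84 (SE 0.11, adjusted p = 3.8e-05) and Esr1 at -0.80 (SE 0.18, adjusted p = 0.00596) called lower. In the kidney lists, 4 of 6 tested matrix genes were higher, led by Col1a1 at 1.83 (SE 0.11, adjusted p = 2.2e-08), with a median of 1.01 against 0.02 over all tested kidney genes. Of all tested kidney genes 7.68% were called higher and 3.81% lower. In the same kidneys adipocyte markers (4 of 5 tested higher) summed to 1.99 to 14.7 CPM in vehicle and 23.4 to 109 CPM in oxaliplatin, and endothelial markers (2 of 6 higher) to 246 to 264 CPM and 295 to 419 CPM, and their part in the matrix result was not tested. Of 5 mineralization genes, Smpd3 (0.91, SE 0.33, adjusted p = 0.0457) and Alpl were higher, and of 6 Wnt genes Sost and Axin2 (0.62, SE 0.16, adjusted p = 0.00729). Runx2 was called among 3 tested transcription factors, and Sost was the only osteocyte gene tested. In the RANKL system Csf1r (-0.89, SE 0.11, adjusted p = 5.0e-05) and Tnfrsf11a (-0.69, SE 0.18, adjusted p = 0.00943) were lower among 5 tested genes. Of 10 tested osteoclast genes, Itgb3 (1.25, SE 0.25, adjusted p = 0.00130) and Ctsk were higher and Acp5 was lower.

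**Figure D5:**
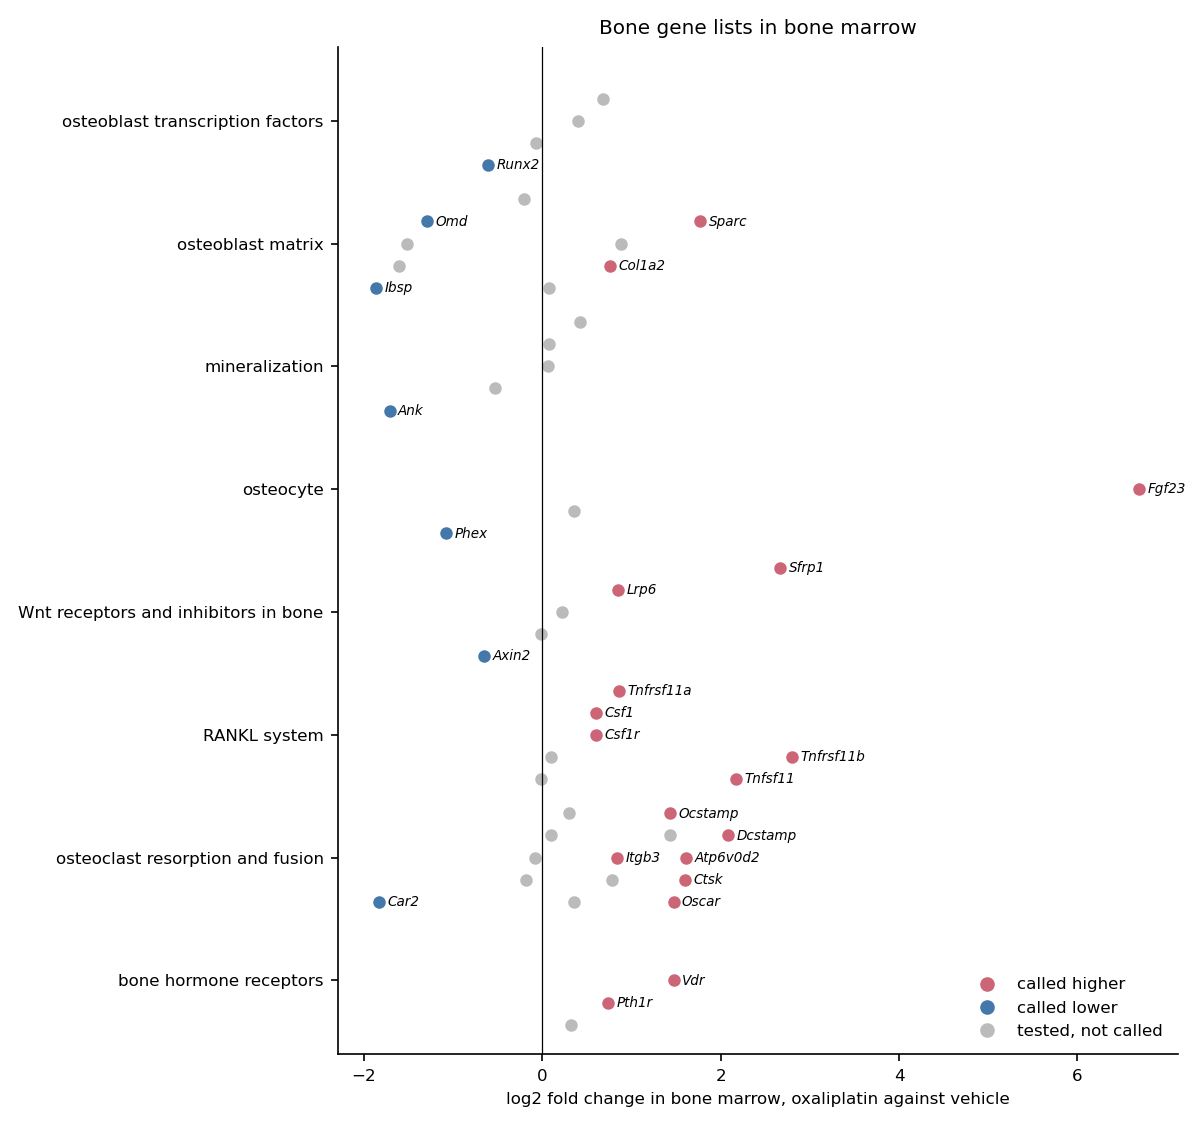
Log2 fold change in bone marrow (horizontal axis) of every tested gene of 8 bone gene lists (rows, with points set at different heights to keep them apart). Genes called higher are red, genes called lower blue and genes not called grey, and Fgf23, at 6.70, lies far to the right of all others.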

How the data were processed

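RNA was sequenced from 10 bone marrow and 10 kidney samples, 5 per group. Per the labels, ribosomal RNA was depleted before random-primed cDNA synthesis, whereas the methods name a SMARTer kit. The deposited values are unnormalized counts per gene, which the authors made from uniquely aligned, unambiguous reads. The labels list STAR, featureCounts and Salmon, and the methods STAR with Partek Flow. Whether counting used strand is not given in the sources used here. Each table had 55774 lines. After 287 repeated identifiers and 1 line with a missing value were removed, 55486 genes remained, and 0 columns of other samples or of the authors' own comparisons were present.

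Counts were filtered with edgeR's filterByExpr (minimum count 10), scaled by TMM and tested with robust quasi-likelihood fits in edgeR 4.0.16 (R 4.3.3), treatment against vehicle within each tissue and as an interaction over 20 libraries. Calls needed an adjusted p under 0.05 (Benjamini-Hochberg over all tested genes) and, within a tissue, more than 1.5-fold. The interaction needed the adjusted p alone. DESeq2 1.42.0, other scalings, filters and thresholds, a Y-linked covariate, a replicate block and omission of each library were alternatives. Ratios were tested by exact permutation in Python 3.11.15. Positions and exon lengths are from GENCODE M21 (GRCm38), promoters from RefSeq (GRCm38.p6). The scripts were tested on simulated data. No library pair differed by less than sampling noise (lowest chi-square per degree of freedom 6.83).

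The 10 genes and all gene lists were chosen with earlier results of these data known. Named genes are the 10, the largest called rise and fall of each list, and genes on which a result of the 10 turns. Phex, Dmp1, Col1a1, Mepe, Nfatc1, Atp6v0d2, Tcirg1, Clcn7, Mmp9, Comp, Cd4, Col2a1, Col10a1, Sox9, Tnnc2, Dlx5, Atf4, Csf1, Tnfrsf11a in kidney and Esr1 in marrow were named after their values were seen. So were Col1a2, Calcr, Siglec15 and Ostm1, and in marrow Itgb3, Oscar and Ocstamp. Within a tissue, vehicle and oxaliplatin samples of the same number are different mice, and a replicate block was an alternative only. An item of a list is not reported here.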

Additional observations from a re-analysis of the deposited data

Results flagged for a closer look

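Values standing apart were sought within each group of 5 mice, by the gap of the highest or lowest mouse to its neighbour over the range of the group, for 37 sets of values. A gap over 0.71 of the range was found in 3 sets, and chance gives about 1 in 20. Tnfsf11 in vehicle marrow was lowest in mouse 4, at 0.627 CPM, a gap of 0.759 of the range. Tnfsf11 in oxaliplatin marrow was lowest in mouse 5, at 2.26 CPM, a gap of 0.897 of the range, although this mouse was still above every vehicle mouse. Runx2 in vehicle kidney was lowest in mouse 3, at 0.864 CPM, a gap of 0.877 of the range.

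The response of 2 genes differed between tissues in the interaction test of edgeR. For Runx2 the difference, marrow minus kidney, was -1.73 on the log2 scale (adjusted p = 1.5e-05), with all 5 treated marrows below and all 5 treated kidneys above their vehicle groups. For Acp5 it was 1.00 (adjusted p = 0.0135), with 4 of 5 treated kidneys below their vehicle group and 2 of 5 treated marrows above and 1 (mouse 5, 62.0 CPM) below theirs. Cell composition differs between the tissues and its part in these differences was not tested.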

How the results depend on the processing

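Of 9 tested genes in marrow 4 were called, and 3 to 5 with 1 library left out. In kidney 5 of 5 were called, and 3 to 5 with 1 library left out. In the interaction 2 of 4 passed, and 2 to 3 with 1 library left out. With a covariate of Y-linked expression 7 of 9 marrow genes were called in edgeR, where 5740 of all 22363 tested genes were called. Alpl (0.85, adjusted p = 0.0355), Sp7 (0.98, adjusted p = 0.00104) and Acp5 (0.67, adjusted p = 0.00844) were added as higher, and the cause was not tested. Every library held Y-linked transcripts (summed 77.5 CPM or more), so the covariate does not separate sexes. Tested against a 1.5-fold change with edgeR's glmTreat, 0 kidney genes were called (2 of 5 at an unadjusted p under 0.05), against 4 by DESeq2 at the usual limits. In marrow glmTreat called 3 genes, Runx2 dropping out (adjusted p = 0.650). Over all tested genes glmTreat called 454 of 19293 in kidney and 2730 of 22363 in marrow. Runx2 in marrow stayed within 1.5-fold with DESeq2 (-0.57), median ratio factors (-0.57), library size alone (-0.47) and without hemoglobin genes (-0.58), each at an adjusted p of at most 0.00528. Library size alone moved the median of all genes from -0.04 to 0.11 in marrow and from 0.02 to 0.16 in kidney. Alpl in marrow was reversed to -0.35 with a replicate block, and the cause was not tested. Without oxaliplatin mice 3 and 4, picked by their osteocalcin counts, Alpl was reversed to -0.92 and Sp7 to -0.11. These mice had the highest Alpl and Sp7 values of their group, so lower estimates followed from the choice. Alpl ranged from -0.39 to 0.37 with 1 library left out. The log2 ratio difference ranged from -0.88 to -0.36 for Tnfsf11 to Tnfrsf11b and from 0.10 to 0.95 for Bglap2 to Bglap with 1 library left out, at an exact permutation p of at least 0.0714.

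Same-numbered mice did not deviate together (correlation -0.12 to 0.23 between marrow groups and -0.15 to 0.075 between kidney groups). Marrow and kidney of the same number had correlations of -0.094 to 0.048 in vehicle and -0.082 to 0.21 in oxaliplatin, with 2 of 5 over 0.1. Tissues of one mouse need not deviate together, so these values cannot tell whether such samples came from one mouse. With a replicate block 4 genes were called in marrow, 4 in kidney and 2 in the interaction. Over all tested genes the block gave 4968 of 22363, 2017 of 19293 and 6710 of 24321. The sign-flip test of the ratios cannot go below 0.0625. Depth limits Sost, Bglap and Bglap2, at 0 to 14 counts in several marrows.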

Other observations

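For Bglap and Ctsk, the tested marrow genes most alike in profile, among the 15051 of 22363 whose average log2 CPM reached 1, were sought by the root mean square difference of log2 CPM, each centred on its treatment group, over the 10 marrow libraries. This is a description with no test. Bglap was nearest to Rag2, a recombination gene of lymphoid precursors, at 0.587, followed by Vpreb3 (0.878), Vpreb1 (0.882), Wif1 (0.961) and Aplnr (0.965), where the median over 15051 genes was 1.54. Ctsk was nearest to Slc9b2 at 0.219, Cd109 (0.235), Bmp3 (0.263), Oscar (0.268) and Spp1 (0.292), where the median was 0.695. Oscar, an osteoclast-associated receptor, was itself called higher (log2 fold change 1.47, adjusted p = 0.00336 in edgeR), and Spp1, osteopontin, was at 0.88 (adjusted p = 0.0607).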
